A study of Mus musculus with 8 samples.

Results

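Regulatory T (Treg) cells that carried a lineage mark and the GFP reporter were compared with Treg cells that carried neither, across all genes with enough counts to test. The 2 populations were defined by their sort labels, and were chosen with earlier results of these data known. They were tdTomato-positive GFP-positive cells, called marked GFP cells here, and tdTomato-negative Thy1.1-positive cells, called unmarked Thy1.1 cells. Each had 2 libraries, so 4 of the 8 libraries of the study entered the comparison. All cells came from mesenteric lymph nodes of mice of 1 labelled genotype, Foxp3DTR-GFP/Thy1.1CD4CreER/wtR26lsl-tdTomato/wt, in which Foxp3 carries a reporter with the diphtheria toxin receptor and GFP and a reporter with Thy1.1, and a tamoxifen-dependent Cre under CD4 control turns on tdTomato. Every mouse was bred and weaned on AVNM and a diet of defined amino acids. Tamoxifen then marked CD4 T cells over about 3 weeks, while diphtheria toxin was given in the same period. Afterwards the mice went to chow and received fecal microbiota of SPF mice, and cells were sorted 12 days later. Tamoxifen and toxin were thus given in all groups. The toxin receptor comes with the GFP reporter alone, so the toxin could act directly on GFP cells and not on Thy1.1 cells. The 2 populations differed in the mark, in the reporter and in this exposure at once. Within this comparison those effects cannot be told apart. CD4-driven Cre can act in any CD4 T cell, Treg or not. Neither the age nor the number of the mice is labelled. A pair of libraries may thus share an animal, and the p-values then reflect a spread that may be technical. Whether both populations were sorted from the same animals is not labelled either, and the reported test did not pair libraries across populations.

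Treg cells restrain immune responses and depend on the transcription factor Foxp3. Some acquire Foxp3 in the thymus, and these typically carry Helios (Ikzf2) and neuropilin-1 (Nrp1). Others acquire it outside the thymus, and in the gut many of those depend on the microbiota and make the factor c-Maf (Maf). Mesenteric lymph nodes drain the intestine and are a site where naive CD4 T cells meet gut antigens.

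The libraries held 38085686 to 47908198 counts, with 14943 to 15863 genes detected per library. On the first principal component of log2 CPM (the count scaled to its library's total with TMM factors), which carried 47.7% of the variance, the marked GFP libraries scored 63.4 and 54.5. The unmarked Thy1.1 libraries scored -33.9 and -33.1, and the other 4 libraries lay between. T cell genes were abundant in all 4 compared libraries, and Cd3e, Cd4, Foxp3, Il2ra, Ctla4, Ikzf4 and Tnfrsf18 were detected in each. Some markers of other cells stood apart in marked GFP library 3: Lyz2 (myeloid) was at 21.9 CPM there and at 0 in library 4, and Hba-a2 (red cell) was at 29.5 and 3.54. In the unmarked Thy1.1 libraries Lyz2 stood at 1.88 and 0.257 CPM. Over the 21 myeloid and dendritic genes in the table, of which 12 were tested, summed levels were 109.5 and 155 CPM in unmarked Thy1.1 and 131 and 198 CPM in marked GFP cells, with 2 called higher and none lower. Siglech was at 0 in both marked GFP libraries. Over the 10 B cell genes, all tested, the sums were 42.8 and 49.8 CPM and 30.8 and 24.4 CPM (1 higher and 2 lower). For the 10 CD8, NK and γδ T cell genes in the table, 6 of them tested, they were 43.6 and 45.5 CPM and 129 and 44.4 CPM (1 higher and 3 lower). Of the conventional CD4 T cell genes 1 was higher and 2 lower of 11, of T cell identity genes 6 were higher and 1 lower of 10, of stromal and epithelial genes 0 were higher and 1 lower of 9, of red cell and platelet genes 2 were higher and 0 lower of 3, and of plasma cell genes none of 3 was called. The 2 red cell calls and 1 of the 2 myeloid calls were lost without marked GFP library 3 or without either unmarked Thy1.1 library, as were 3 of the 6 higher calls of T cell identity genes. The same myeloid count also fell to 1 without either marked Thy1.1 library, and the lower T cell identity call was lost without unmarked Thy1.1 library 1. Without either unmarked Thy1.1 library, 0 B cell genes and 0 stromal and epithelial genes were lower and 1 CD8, NK and γδ T cell gene was. Without either library of marked Thy1.1 or of unmarked GFP cells, 1 B cell gene was lower. The higher B cell call was lost without unmarked Thy1.1 library 1 or marked GFP library 3, and the higher CD8, NK and γδ T cell call without any 1 of the 4 Thy1.1 libraries or marked GFP library 3. The part of such cells in the results was not tested. In bulk RNA, fewer cells of a type and less RNA per cell cannot be told apart.

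The contrast was broad. Of 13989 genes tested, 3303 (23.6%) passed an edgeR quasi-likelihood test at an adjusted p under 0.05. Of these, 1714 were higher (12.3% of all genes) and 1589 lower (11.4%) in marked GFP cells. The median log2 fold change, here always marked GFP over unmarked Thy1.1, was 0 over all tested genes. Many differences were large: 695 genes were at least 2-fold higher and 710 at least 2-fold lower, and 151 and 163 differed at least 8-fold. Without unmarked Thy1.1 library 1 the count fell to 1355 genes, without library 2 to 1348, and without marked GFP library 3 to 2220. Those counts come from a fit with fewer libraries. DESeq2 called 4400 genes.

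**Figure D1:**
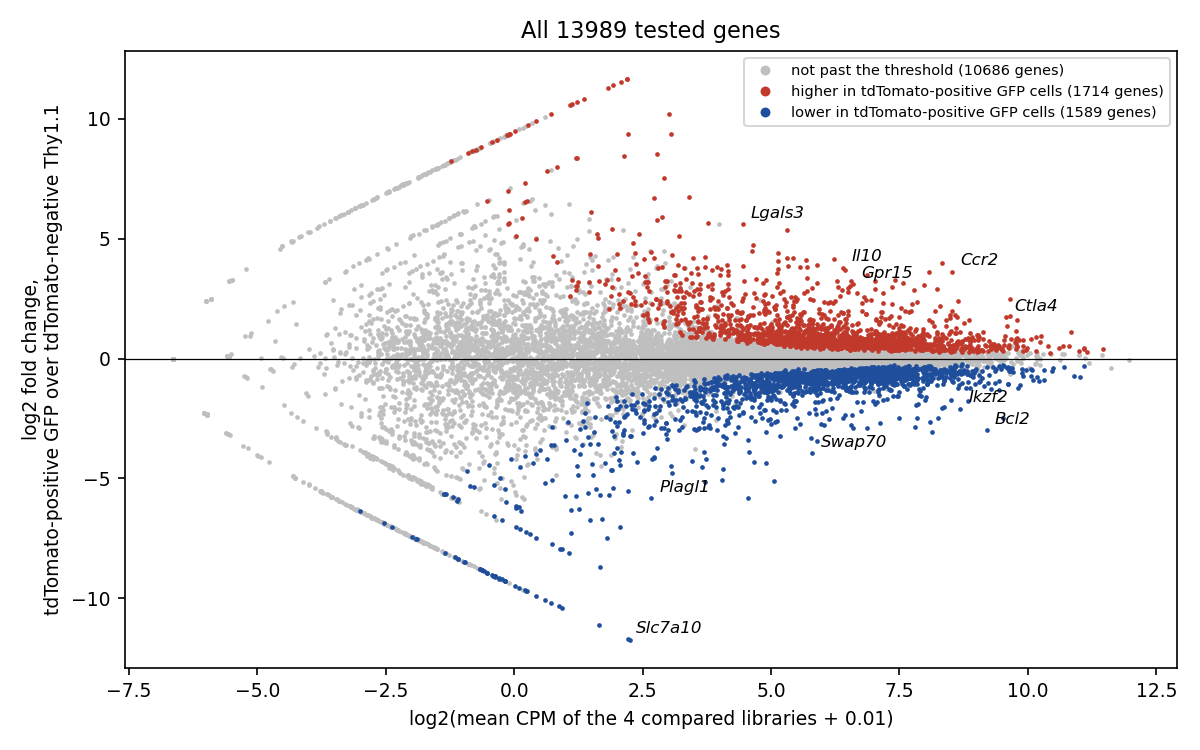
Log2 fold change of marked GFP over unmarked Thy1.1 cells (y axis) against log2 of the mean CPM of the 4 compared libraries plus 0.01 (x axis), 1 point per tested gene. Red points (1714) were higher and blue points (1589) lower at an edgeR adjusted p under 0.05, and the diagonal lines at the left edge are genes with 0 counts in 1 population.

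The gene lists used here share some members. Their counts are to be read beside the 23.6% of all tested genes called (12.3% higher and 11.4% lower). Handling stress (20% called), B cell (30%), conventional CD4 T cell (27.3%) and myeloid genes (16.7%) were near that share. Those counts give no result about the members. Values joined by "against" give unmarked Thy1.1 libraries 1 and 2 first and marked GFP libraries 3 and 4 second, and errors are standard errors.

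The genes that mark the sort were examined first. Foxp3 was slightly lower in marked GFP cells, at 175 and 201 CPM in unmarked Thy1.1 and 126 and 141 CPM in marked GFP libraries (log2 fold change -0.49 ± 0.12, edgeR adjusted p = 0.021). The libraries of the 2 populations did not overlap, as for 62.4% of all tested genes. Exons of Foxp3 overlap Ccdc22 and Ppp1r3f, and without strand their reads cannot be separated. Thy1, whose allele Thy1.1 is the reporter, stood at 80.8 and 72.6 CPM against 51.6 and 46.8 CPM (log2 fold change -0.64 ± 0.13, edgeR adjusted p = 0.0127). Its counts cannot tell the reporter from the gene's own transcript. Cd4, the coreceptor used to sort, was higher at 328 and 301 CPM against 507 and 466 CPM (log2 fold change 0.63 ± 0.09, edgeR adjusted p = 0.00302). Il2ra, the high-affinity IL-2 receptor chain, did not pass the test, at 768 and 1056 CPM against 631 and 1084 CPM. Foxp3 missed the threshold without unmarked Thy1.1 library 2 or marked GFP library 3, where its log2 fold change was -0.42 and -0.44 in that order. Foxp3 was also not called in the fit of the 4 compared libraries alone. Thy1 missed the threshold without unmarked Thy1.1 library 1, where its log2 fold change was -0.60.

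Genes associated with thymic Treg cells were lower as a group. Of the 12 tested, 1 was higher and 9 lower, with a median log2 fold change of -1.65 against 0 over all genes and 11.4% of all genes lower. Ikzf2, which encodes Helios, was at 627 and 696 CPM in unmarked Thy1.1 cells and at 183 and 128 CPM in marked GFP cells (log2 fold change -2.09 ± 0.25, edgeR adjusted p = 0.00152). Nrp1, a coreceptor for semaphorins, was at 558 and 471 CPM against 90.5 and 94.4 CPM (log2 fold change -2.48 ± 0.17, edgeR adjusted p = 0.00027). Both marked GFP libraries lay below both unmarked libraries for each gene. Swap70, a signalling and actin-binding protein, differed more, from 96 and 114 CPM to 7.99 and 5.64 CPM (log2 fold change -3.94 ± 0.25, edgeR adjusted p = 0.00026). Cd83, a surface glycoprotein, dropped from 224 and 237 CPM to 105 and 114 CPM (log2 fold change -1.07 ± 0.11, edgeR adjusted p = 0.00089). Plagl1, a zinc finger factor, was nearly absent from marked GFP cells, at 15.1 and 9.71 CPM against 0.0451 and 0.403 CPM (log2 fold change -5.82 ± 0.81, edgeR adjusted p = 0.00263). The member that was higher was Socs2, a brake on cytokine signalling, at 63.5 and 108 CPM against 294 and 383 CPM (log2 fold change 1.98 ± 0.30, edgeR adjusted p = 0.00359). Ikzf4 (Eos), a relative of Helios on the broader Treg list, was at 221 and 194 CPM against 12.4 and 43.4 CPM (log2 fold change -2.90 ± 0.50, edgeR adjusted p = 0.00594), and the 2 marked GFP libraries differed widely for it. The list kept 7 to 9 lower members with any 1 library left out. Plagl1 kept its call without marked GFP library 3 or marked GFP library 4 but at a log2 fold change of -4.97 and -8.04 in that order. Ikzf4 kept its call without marked GFP library 3 or marked GFP library 4 but at a log2 fold change of -2.29 and -4.08 in that order. Nrp1 shares an exon region with Mir1903.

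Genes of naive cells and of homing to lymph nodes were lower too. Of 20 tested, 14 were lower and none was higher (median -1.0), and 13 or 14 were lower with any 1 library left out. Ccr7, the chemokine receptor for the T cell zone, was at 559 and 565 CPM against 206 and 269.7 CPM (log2 fold change -1.24 ± 0.12, edgeR adjusted p = 0.00094). Exit from the node is controlled by S1pr1 and by its regulator Klf2. S1pr1 was at 695 and 704 CPM against 379.8 and 325 CPM (log2 fold change -0.99 ± 0.11, edgeR adjusted p = 0.00129), and Klf2 at 617 and 616 CPM against 379 and 340.5 CPM (log2 fold change -0.78 ± 0.11, edgeR adjusted p = 0.00258). The factors of the resting state were lower in both libraries. Tcf7 (TCF-1) was at 837 and 774 CPM against 348 and 446 CPM (log2 fold change -1.02 ± 0.12, edgeR adjusted p = 0.00158), Lef1 at 589 and 654 CPM against 277 and 253 CPM (log2 fold change -1.23 ± 0.09, edgeR adjusted p = 0.00033).

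Bach2, a repressor of effector genes, was at 515 and 542 CPM against 116 and 142 CPM (log2 fold change -2.04 ± 0.12, edgeR adjusted p = 0.00026), and its exons overlap its antisense gene Bach2os. Satb1, a chromatin organiser of early T cells, was at 686 and 725 CPM against 214 and 197 CPM (log2 fold change -1.78 ± 0.10, edgeR adjusted p = 0.00026). Id3, an inhibitor of E proteins, was at 166 and 155 CPM against 33.7 and 28.7 CPM (log2 fold change -2.36 ± 0.14, edgeR adjusted p = 0.00026). No gene had a smaller adjusted p than these 3. On the list of thymocyte and recent emigrant genes, 1 was higher and 7 lower of 12 (median -1.59), but 3 and 4 were lower without unmarked Thy1.1 library 1 and library 2. Cd8a, the CD8 coreceptor chain, stood at 7.15 and 6.96 CPM against 0.541 and 0 CPM (log2 fold change -4.67 ± 1.33, edgeR adjusted p = 0.0388). Cd8a missed the threshold without unmarked Thy1.1 library 1, unmarked Thy1.1 library 2, marked Thy1.1 library 1, marked Thy1.1 library 2, unmarked GFP library 3 or unmarked GFP library 4, where its log2 fold change was -4.69, -4.72, -4.70, -4.71, -4.67 and -4.70 in that order. Cd8a kept its call without marked GFP library 3 or marked GFP library 4 but at a log2 fold change of -11.29 and -3.71 in that order. Cd8a was also not called in the fit of the 4 compared libraries alone.

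**Figure D2:**
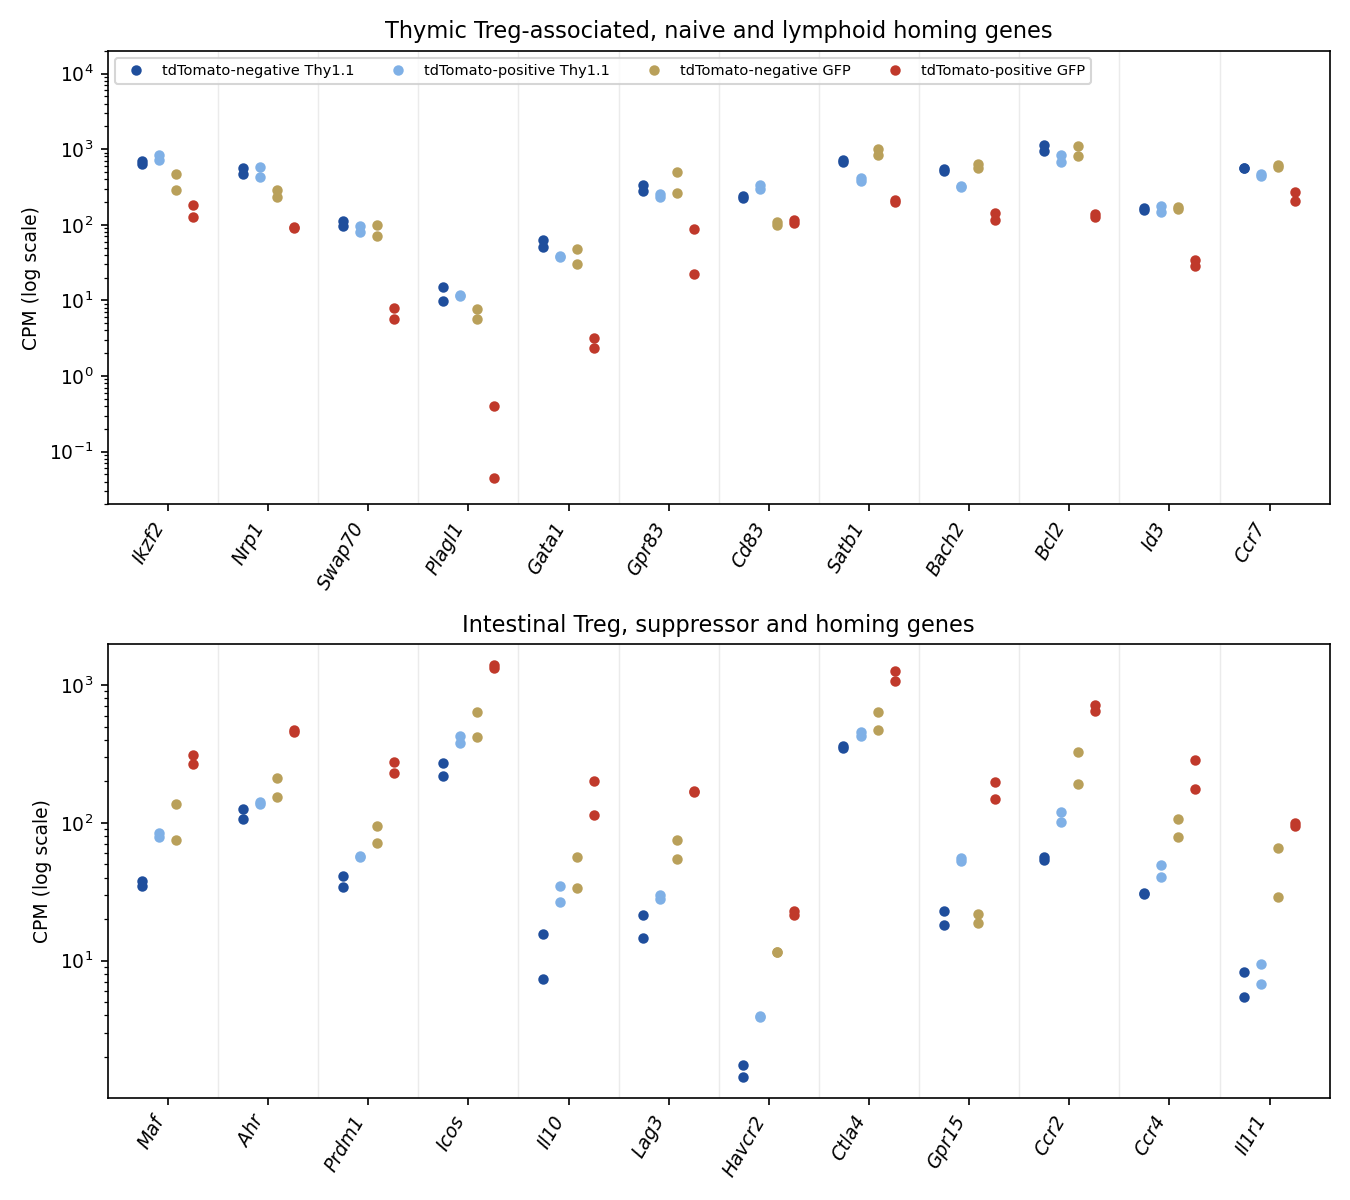
CPM on a log scale for each library of the 4 populations (1 point per library), for 12 genes of the thymic Treg and naive groups (top) and 12 of the intestinal, suppressor and homing groups (bottom). Marked GFP cells (red) lie below unmarked Thy1.1 cells (dark blue) for every gene of the top panel and above them for every gene of the bottom panel. The genes shown were picked from these groups. Members that went the other way, such as Socs2, Cd274, Ebi3, Itgb8 and Itga4, are not shown.

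Genes of intestinal Treg cells were higher in marked GFP cells. Of 20 tested, 19 were higher and none was lower (median log2 fold change 2.43, 12.3% of all genes higher), and 16 to 19 were higher with any 1 library left out. Summed over the list, unmarked Thy1.1 libraries held 1365 and 1544 CPM and marked GFP libraries 6085 and 5526 CPM. Maf, a leucine zipper factor that drives Il10 in T cells, was at 34.8 and 38.1 CPM against 312 and 269 CPM (log2 fold change 3.00 ± 0.26, edgeR adjusted p = 0.00065). Ahr, the receptor for dietary and microbial aromatic compounds, was at 107 and 126 CPM against 456 and 474 CPM (log2 fold change 2.00 ± 0.16, edgeR adjusted p = 0.00046). For both genes the lower marked GFP library exceeded the higher unmarked library by more than the spread within either population. The member that did not pass was Dapl1, at 5.71 and 8.45 CPM and 6.57 and 0.806 CPM, and its populations overlapped.

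The transcription factors of effector Treg cells followed the same direction, with 14 of 16 higher and none lower (median 1.56), and 10 to 14 higher with any 1 library left out. Prdm1 (Blimp-1), which drives effector differentiation, was at 34.1 and 40.9 CPM against 229 and 277 CPM (log2 fold change 2.75 ± 0.18, edgeR adjusted p = 0.00026). Rora, an orphan nuclear receptor, was at 78.1 and 67.6 CPM against 249 and 251 CPM (log2 fold change 1.78 ± 0.19, edgeR adjusted p = 0.00101). Batf, an AP-1 family factor of tissue Treg cells, was at 93.8 and 96.1 CPM against 262 and 210.4 CPM (log2 fold change 1.31 ± 0.21, edgeR adjusted p = 0.00468). The 2 members that did not pass were Relb, at 103 and 90.1 CPM and 124 and 116 CPM, and Bhlhe40, at 43.5 and 42.8 CPM and 42.1 and 50.7 CPM. Hic1, a repressor tied to retinoic acid in gut T cells that is not on this list, was at 34.3 and 36.7 CPM against 144 and 122 CPM (log2 fold change 1.91 ± 0.18, edgeR adjusted p = 0.00086). Nfil3, a leucine zipper factor, was at 15.7 and 30.5 CPM against 124 and 114 CPM (log2 fold change 2.37 ± 0.30, edgeR adjusted p = 0.00185).

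Genes for suppressive molecules were mostly higher: 10 were higher and 3 lower of 18 (median 1.28). Il10, the anti-inflammatory cytokine, was at 7.37 and 15.5 CPM against 202 and 113 CPM (log2 fold change 3.79 ± 0.46, edgeR adjusted p = 0.00164). The lowest marked GFP library was still well above both unmarked libraries. Ctla4, which removes costimulatory ligands from antigen-presenting cells, was at 362 and 348 CPM against 1264 and 1072 CPM (log2 fold change 1.72 ± 0.15, edgeR adjusted p = 0.00065). Among the inhibitory receptors, Lag3 was at 14.5 and 21.4 CPM against 169 and 171 CPM (log2 fold change 3.24 ± 0.23, edgeR adjusted p = 0.00028). Havcr2, which encodes TIM-3, was at 1.76 and 1.42 CPM against 23 and 21.3 CPM (log2 fold change 3.80 ± 0.30, edgeR adjusted p = 0.00046). Tigit was at 20.9 and 27.8 CPM against 149.9 and 106 CPM (log2 fold change 2.39 ± 0.30, edgeR adjusted p = 0.00181), and its marked libraries lay further apart than those of Lag3. Gzmb, the cytotoxic protease granzyme B, was at 42.4 and 34.1 CPM against 860.2 and 347 CPM (log2 fold change 3.98 ± 0.50, edgeR adjusted p = 0.00193), and Nkg7, of cytotoxic cells, was at 116 and 26.7 CPM in the same marked libraries. The part of such cells in it was not tested. Fgl2, a secreted suppressor, was at 60.1 and 55.7 CPM against 219 and 231 CPM (log2 fold change 1.96 ± 0.17, edgeR adjusted p = 0.00068).

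The lower members were Cd274, Ebi3 and Itgb8. Cd274 encodes PD-L1, the ligand of an inhibitory receptor, and was at 79.5 and 94.4 CPM against 30.7 and 42 CPM (log2 fold change -1.26 ± 0.19, edgeR adjusted p = 0.00365). Lrrc32, on the broader Treg list, encodes GARP, which holds latent TGF-β on the Treg surface, and was at 458 and 574 CPM against 72.8 and 177 CPM (log2 fold change -2.05 ± 0.40, edgeR adjusted p = 0.00948). Itgb8, the integrin chain that activates latent TGF-β, was at 28.4 and 35.1 CPM against 9.95 and 6.29 CPM (log2 fold change -1.97 ± 0.51, edgeR adjusted p = 0.0279). Ebi3, a subunit of IL-35, was at 19.8 and 22.5 CPM against 9.88 and 10.1 CPM (log2 fold change -1.08 ± 0.23, edgeR adjusted p = 0.0129). Just 1 member of the suppressor list was lower without unmarked Thy1.1 library 2. Il10 kept its call without unmarked Thy1.1 library 2 but at a log2 fold change of 4.39. Gzmb kept its call without marked GFP library 3 but at a log2 fold change of 3.15. Lrrc32 missed the threshold without unmarked Thy1.1 library 2, where its log2 fold change was -1.91. Lrrc32 kept its call without marked GFP library 4 but at a log2 fold change of -2.84. Itgb8 missed the threshold without unmarked Thy1.1 library 1, unmarked Thy1.1 library 2, marked Thy1.1 library 1, marked Thy1.1 library 2, marked GFP library 3 or marked GFP library 4, where its log2 fold change was -2.15, -1.84, -2.0, -2.0, -2.37 and -1.69 in that order. Ebi3 missed the threshold without unmarked Thy1.1 library 2, where its log2 fold change was -1.02. Exons of Ebi3 overlap Gm16712.

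The broader list of Treg genes was split, with 7 higher and 9 lower of 24 (median -0.40). Without unmarked Thy1.1 library 1, 4 were higher, and without library 2, 3 were lower. Icos, a costimulatory receptor that is not on this list, was at 220.0 and 270.5 CPM against 1407 and 1320 CPM (log2 fold change 2.48 ± 0.20, edgeR adjusted p = 0.00046). Capg, an actin-capping protein of effector T cells, was at 382 and 344 CPM against 1282 and 1217 CPM (log2 fold change 1.78 ± 0.14, edgeR adjusted p = 0.00047). Tnfrsf18, which encodes GITR, did not pass, at 302 and 325 CPM and 375 and 319 CPM, and its populations overlapped. Tnfrsf1b, the TNF receptor TNFR2, was at 521 and 574 CPM against 1169 and 1235 CPM (log2 fold change 1.13 ± 0.08, edgeR adjusted p = 0.00027). On the list of TNF receptor family costimulators, 5 were higher and 3 lower of 15.

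Receptors for migration into tissue were higher, 12 of 18 with 1 lower (median 1.17), and 8 to 13 were higher with any 1 library left out. Gpr15 guides T cells to the colon and was at 18 and 22.7 CPM against 199 and 148 CPM (log2 fold change 3.09 ± 0.20, edgeR adjusted p = 0.00026), with exons that overlap Cpox. Ccr2, a receptor for inflammatory chemokines, was at 54 and 56.6 CPM against 715 and 653 CPM (log2 fold change 3.63 ± 0.25, edgeR adjusted p = 0.00026). Ccr4 was at 30.2 and 30.9 CPM against 177 and 284 CPM (log2 fold change 2.92 ± 0.25, edgeR adjusted p = 0.00065). Chemokine receptors of other tissues behaved alike. Ccr6 was at 30.1 and 34.4 CPM against 168 and 216 CPM (log2 fold change 2.57 ± 0.34, edgeR adjusted p = 0.00229) and Cxcr6 at 39.3 and 37.4 CPM against 408 and 278 CPM (log2 fold change 3.16 ± 0.42, edgeR adjusted p = 0.00229). Itgae (CD103), which binds epithelial E-cadherin, was less than 2-fold higher, at 340.5 and 328 CPM against 651 and 611 CPM (log2 fold change 0.92 ± 0.09, edgeR adjusted p = 0.00081). The lower member was Itga4, the α4 integrin chain of gut homing, at 507 and 504 CPM against 332 and 323 CPM (log2 fold change -0.63 ± 0.12, edgeR adjusted p = 0.00826), and its exons overlap Cerkl. Ccr9, the small intestine receptor, was at 144 and 120.3 CPM against 536 and 283 CPM (log2 fold change 1.63 ± 0.35, edgeR adjusted p = 0.0143), and its exons overlap Slc6a20a. Ccr9 missed the threshold without unmarked Thy1.1 library 1, unmarked Thy1.1 library 2 or marked GFP library 3, where its log2 fold change was 1.73, 1.47 and 1.06 in that order.

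Genes of helper T cell programs were measured as well. For the type 17 list, 8 were higher and 2 lower of 14 (median 2.74), for the type 1 list 5 were higher and 2 lower of 13, and for the type 2 list 6 were higher and 1 lower of 11. The type 17 median was 2.15 without unmarked Thy1.1 library 1, and 1 member was lower without either unmarked Thy1.1 library. No type 2 member was lower without either unmarked Thy1.1 library or marked GFP library 3. On the follicular helper list 9 of 16 were higher and none was lower, but 3 were higher without unmarked Thy1.1 library 1. Il1r1, the IL-1 receptor of type 17 cells, was at 5.44 and 8.2 CPM against 98.9 and 95 CPM (log2 fold change 3.83 ± 0.42, edgeR adjusted p = 0.00115). Tbx21, which encodes the type 1 factor T-bet, was at 5.97 and 3.64 CPM against 18.3 and 19.9 CPM (log2 fold change 1.99 ± 0.33, edgeR adjusted p = 0.00536). Il4, the type 2 cytokine, was at 2.9 and 2.9 CPM against 34.2 and 31.8 CPM (log2 fold change 3.51 ± 0.39, edgeR adjusted p = 0.00115). Il1r1, Tbx21 and Il4 were higher in both marked GFP libraries, although they belong to different programs. Eomes, also on the type 1 list, was lower, with 191 counts in unmarked Thy1.1 and 1 in marked GFP libraries. Its count ratio was 172.9 (95% counting interval 30.67 to 6866). Bcl6, the follicular helper factor, did not pass, at 24.3 and 26.4 CPM and 18.7 and 29.1 CPM.

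Tissue Treg genes tied to GATA3 gave 8 higher and 1 lower of 16 (median 0.96), and 5 were higher without unmarked Thy1.1 library 1. Gata3 itself was at 167 and 157 CPM against 416 and 229.6 CPM (log2 fold change 0.99 ± 0.23, edgeR adjusted p = 0.0193). Klrg1, an inhibitory receptor of late effector cells, was at 27.6 and 27.6 CPM against 144 and 56.1 CPM (log2 fold change 1.86 ± 0.53, edgeR adjusted p = 0.0395). For both genes the marked libraries lay far apart. Il1rl1, the IL-33 receptor, did not pass, at 33.2 and 43.4 CPM and 26.4 and 30.8 CPM. Gata3 missed the threshold without unmarked Thy1.1 library 1 or unmarked Thy1.1 library 2, where its log2 fold change was 1.0 and 0.92 in that order. Gata3 was also not called in the fit of the 4 compared libraries alone. Klrg1 missed the threshold without unmarked Thy1.1 library 1, unmarked Thy1.1 library 2, marked Thy1.1 library 1, marked Thy1.1 library 2 or marked GFP library 3, where its log2 fold change was 1.82, 1.83, 1.82, 1.82 and 0.99 in that order. Klrg1 was also not called with no filter on low counts and under the stricter filter. Exons of Gata3 overlap 9230102O04Rik.

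Cell cycle genes were higher across nearly all stages. On the list of DNA replication genes, 31 of 35 were higher and none was lower (median 1.45). On the list of mitosis genes, 28 of 38 were higher and none was lower (median 2.70), and all 38 had a positive log2 fold change. Without unmarked Thy1.1 library 1, 17 replication genes were called, and without library 2, 16 mitosis genes were. Replication genes are commonly switched on by E2F factors at the onset of S phase. Many mitosis genes are repressed in resting cells through a CHR element near the start site, often beside CCAAT boxes. The promoters of 4 of these genes are shown because the letters of those elements lie in them. They are the 250 bases before the start site from RefSeq (GRCm38.p6), read 5′ to 3′ on the gene's strand. Capitals mark, on either strand, TTTGAA or TTCGAA (CHR) and CCAAT in Ccnb2 and Cdc20, and TTTCGCGC, TTTGGCGC or TTTCCCGC (E2F) alone in Mcm5 and Mcm6. They lie at chr9:70421555-70421804, minus strand (Ccnb2), chr4:118437344-118437593, minus strand (Cdc20), chr8:75109259-75109508, plus strand (Mcm5) and chr1:128359706-128359955, minus strand (Mcm6). In Ccnb2 the CHR letters lie upstream of all marked CCAAT letters, and neither near the start site nor beside a CCAAT.
Ccnb2: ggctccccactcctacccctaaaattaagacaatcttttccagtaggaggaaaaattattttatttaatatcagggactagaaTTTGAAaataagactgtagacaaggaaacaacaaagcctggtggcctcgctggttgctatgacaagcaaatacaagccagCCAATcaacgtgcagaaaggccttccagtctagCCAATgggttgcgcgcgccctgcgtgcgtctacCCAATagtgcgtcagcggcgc
Cdc20: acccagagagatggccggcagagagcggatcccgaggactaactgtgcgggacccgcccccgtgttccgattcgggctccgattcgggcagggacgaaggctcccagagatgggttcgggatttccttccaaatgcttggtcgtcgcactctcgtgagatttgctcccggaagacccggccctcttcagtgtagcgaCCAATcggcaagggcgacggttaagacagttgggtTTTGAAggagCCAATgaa
Mcm5: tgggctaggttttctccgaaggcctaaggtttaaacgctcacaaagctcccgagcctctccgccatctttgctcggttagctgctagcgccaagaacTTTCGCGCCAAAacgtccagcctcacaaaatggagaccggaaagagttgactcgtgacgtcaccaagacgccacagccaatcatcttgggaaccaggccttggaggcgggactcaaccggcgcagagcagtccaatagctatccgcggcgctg
Mcm6: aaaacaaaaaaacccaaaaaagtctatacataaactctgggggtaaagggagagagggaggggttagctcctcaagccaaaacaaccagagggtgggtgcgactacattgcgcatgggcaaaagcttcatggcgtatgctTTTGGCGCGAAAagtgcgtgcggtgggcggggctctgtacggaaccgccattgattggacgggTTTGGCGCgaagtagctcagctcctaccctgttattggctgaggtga

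Letters of the CHR were in 10 of the 30 mitosis genes with a promoter in the table (33.3%) and in 12.4% of the 10766 tested genes with one. CCAAT was in 23 of those 30 (76.7%), in 17 of 29 replication genes (58.6%) and in 36.4% of tested genes. CHR letters were in 6 of those 29 (20.7%). The E2F letters were in 7 of 29 replication genes (24.1%), in 1 of the 30 mitosis genes (3.33%) and in 2.89% of tested genes. GCGTG, the core letters bound by AHR, was in 5 of the 10 AHR targets with a promoter, whether tested or not (50%), and in 44% of tested genes. A match describes these letters in this window and is not a binding site. Matches to the E2F letters and to CCAAT can share bases. Where the table had several start sites for a gene, the first was used.

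The genes whose promoters are shown were higher, and they were picked with their values in view. Whether the letters bear on these differences was not tested. Ccnb2, the cyclin that drives entry to mitosis, was at 2.16 and 1.54 CPM in unmarked Thy1.1 cells and at 112 and 42.6 CPM in marked GFP cells (log2 fold change 5.38 ± 0.74, edgeR adjusted p = 0.0026). Cdc20, the activator of the anaphase-promoting complex, was at 3.98 and 7.71 CPM against 62.8 and 40.1 CPM (log2 fold change 3.14 ± 0.49, edgeR adjusted p = 0.00409), and its exons overlap Elovl1. Mcm5 and Mcm6 are subunits of the replicative helicase. Mcm5 was at 78.9 and 70.8 CPM against 214 and 187 CPM (log2 fold change 1.42 ± 0.15, edgeR adjusted p = 0.00101), and Mcm6 at 270.2 and 246 CPM against 520.1 and 595 CPM (log2 fold change 1.11 ± 0.13, edgeR adjusted p = 0.00164). Both marked libraries lay above both unmarked ones. Mki67, the proliferation antigen Ki-67, was at 8.15 and 7.52 CPM against 48.4 and 54.4 CPM (log2 fold change 2.71 ± 0.40, edgeR adjusted p = 0.00345). Stmn1, a microtubule regulator, was at 11.9 and 12.4 CPM against 126 and 87.9 CPM (log2 fold change 3.13 ± 0.27, edgeR adjusted p = 0.00065). Birc5 (survivin), of the chromosomal passenger complex, was at 3.45 and 2.9 CPM against 82.8 and 51 CPM (log2 fold change 4.40 ± 0.47, edgeR adjusted p = 0.00104). Rrm2, which makes deoxynucleotides, was at 24 and 14.8 CPM against 253 and 179 CPM (log2 fold change 3.47 ± 0.37, edgeR adjusted p = 0.00102). Among G1 regulators and inhibitors, 6 were higher and 1 lower of 19. Cdkn2c, the inhibitor p18, was higher, at 3.9 and 6.93 CPM against 73.5 and 54.3 CPM (log2 fold change 3.56 ± 0.34, edgeR adjusted p = 0.00086). Ccnb2 kept its call without marked GFP library 3 but at a log2 fold change of 4.49.

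**Figure D3:**
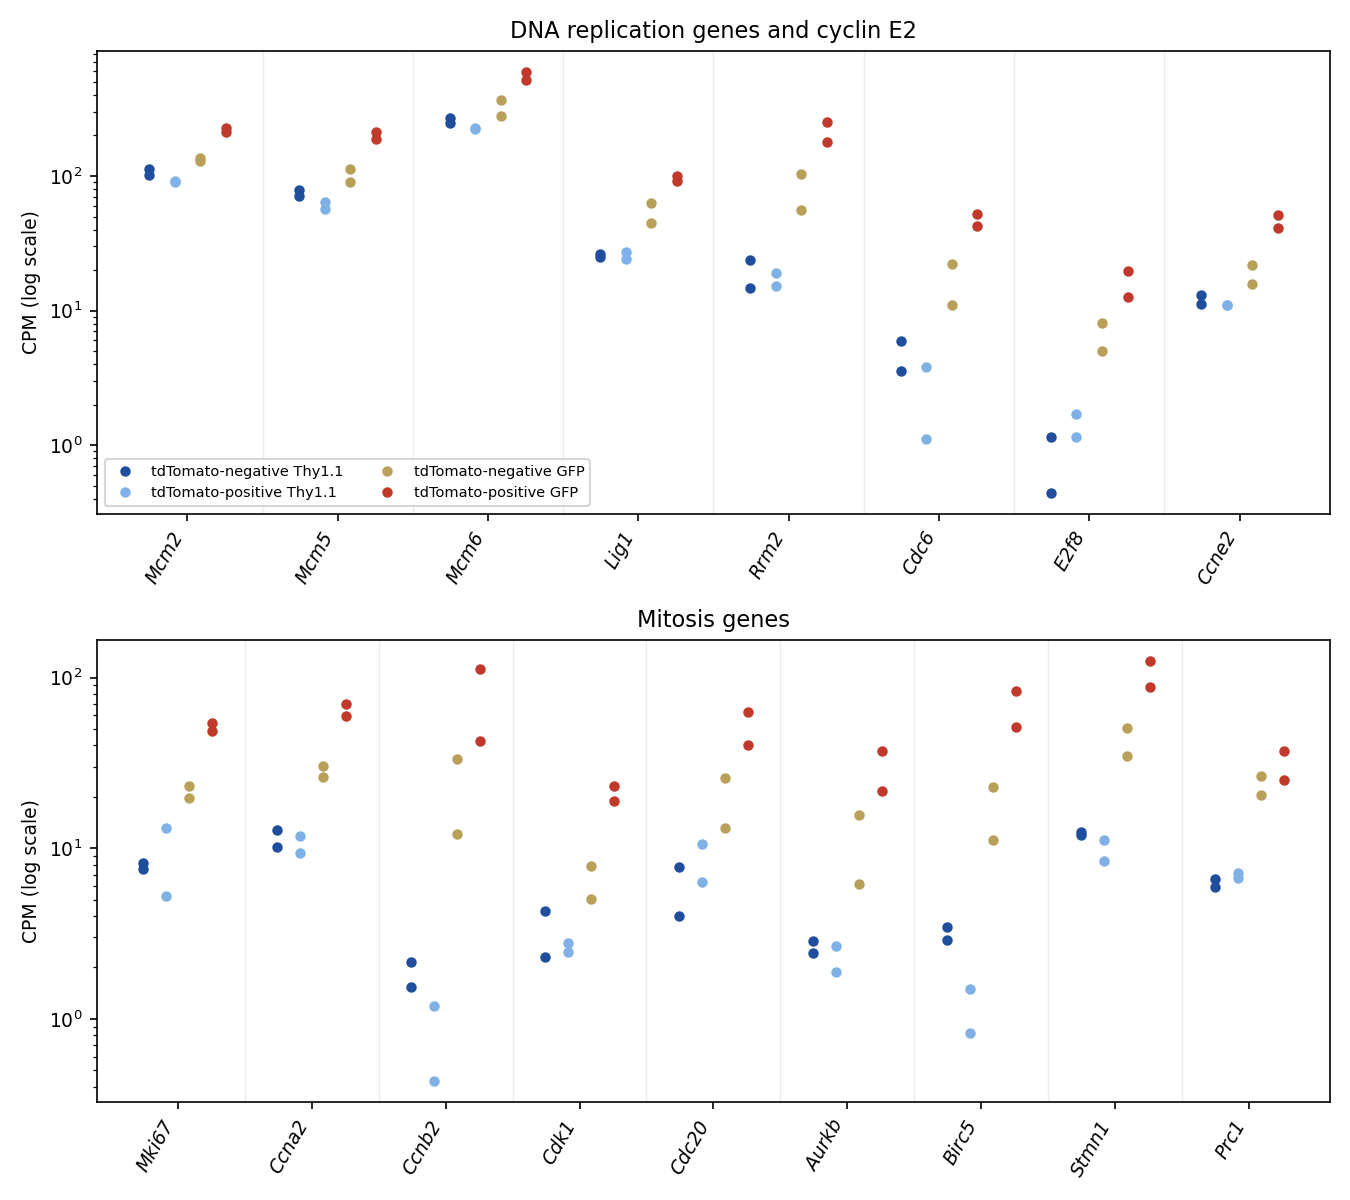
CPM on a log scale for each library of the 4 populations (1 point per library), for 7 DNA replication genes and cyclin E2 (top) and 9 mitosis genes (bottom). Both marked GFP libraries (red) lie above both unmarked Thy1.1 libraries (dark blue) for each gene shown.

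Genes of migration-related and calcium-binding proteins formed another group that was higher. Of the 15 S100, annexin and galectin genes tested, 12 were higher and none was lower (median 1.62). S100a4 was at 6.22 and 5.09 CPM against 112 and 82.7 CPM (log2 fold change 4.10 ± 0.48, edgeR adjusted p = 0.00143), and S100a6 at 11.4 and 13.5 CPM against 197 and 126 CPM (log2 fold change 3.70 ± 0.40, edgeR adjusted p = 0.00106). Lgals1 and Lgals3 encode galectins, lectins that bind β-galactosides. Lgals1 was at 55.5 and 52.4 CPM against 456 and 316 CPM (log2 fold change 2.84 ± 0.27, edgeR adjusted p = 0.00086), and Lgals3 at 0.423 and 1.33 CPM against 58.5 and 26.9 CPM (log2 fold change 5.61 ± 0.65, edgeR adjusted p = 0.00144). Lgals3 is also made by macrophages, and myeloid Lyz2 was at 21.9 and 0 CPM in marked GFP libraries 3 and 4. The part of other cells in it was not tested. Lgals3 kept its call without unmarked Thy1.1 library 1, unmarked Thy1.1 library 2 or marked GFP library 3 but at a log2 fold change of 4.96, 6.61 and 4.90 in that order.

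**Figure D4:**
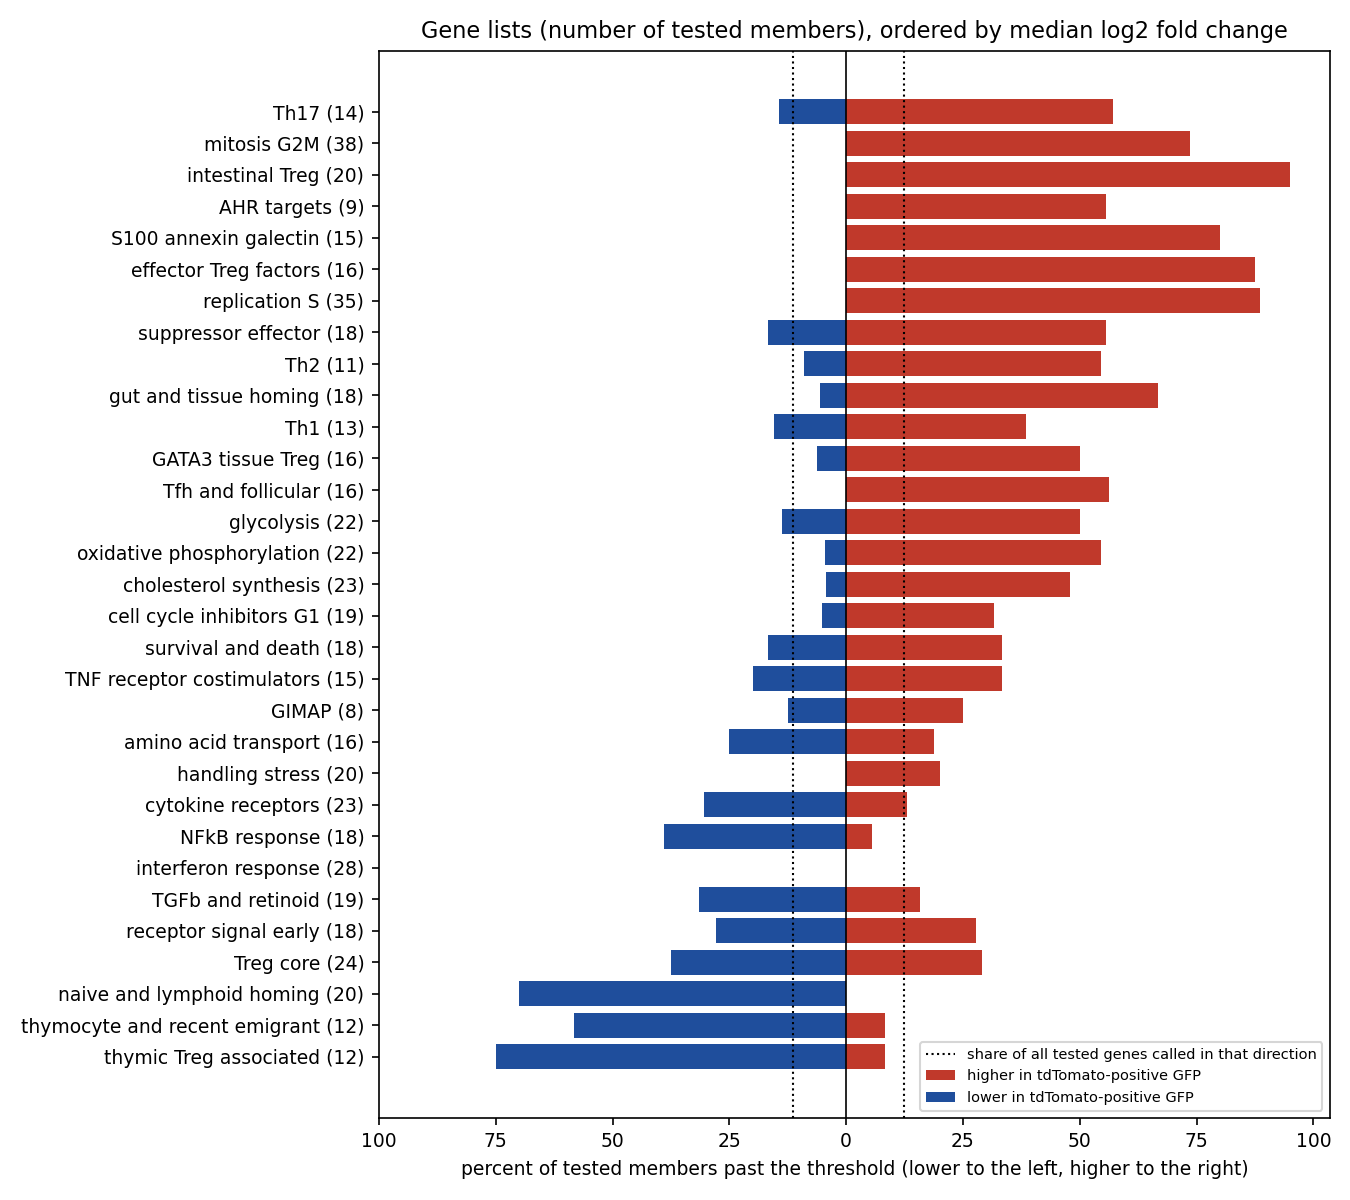
Percent of the tested members of each gene list that were higher (red, to the right) or lower (blue, to the left) in marked GFP cells at an edgeR adjusted p under 0.05, with the number tested in parentheses and lists ordered by median log2 fold change. Dotted lines mark the share of all tested genes called in each direction (12.3% and 11.4%), and 19 of 20 intestinal Treg genes lie on the higher side.

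Genes of antigen receptor signalling were called in both directions: 5 were higher and 5 lower of 18 early response genes. Egr1, an immediate early factor, was at 235 and 215 CPM against 450.0 and 406 CPM (log2 fold change 0.93 ± 0.11, edgeR adjusted p = 0.00154). Myc, a transcription factor of growth in activated cells, was at 265 and 318 CPM against 130.4 and 169.6 CPM (log2 fold change -0.96 ± 0.17, edgeR adjusted p = 0.0068). Without unmarked Thy1.1 library 1, 2 of these were higher and 3 lower, and without library 2 or marked GFP library 3, 3 were higher. Of 18 NF-κB response genes, 1 was higher and 7 lower (44.4% called, beside 23.6% of all tested genes). The number lower depended on both unmarked Thy1.1 libraries. Their median log2 fold change was -0.12, and ran from -0.26 to -0.12 with any 1 library left out. Rel, which encodes the NF-κB subunit c-Rel, was at 51.7 and 75.2 CPM against 15.2 and 13.9 CPM (log2 fold change -2.13 ± 0.23, edgeR adjusted p = 0.00111). Nfkbiz, an NF-κB regulator, was at 193 and 209 CPM against 83.5 and 102 CPM (log2 fold change -1.11 ± 0.16, edgeR adjusted p = 0.00321).

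Cytokine and growth factor receptors differed by member. On the cytokine receptor list, 3 were higher and 7 lower of 23, and the number lower was 3, 2 and 4 without unmarked Thy1.1 library 1, library 2 and marked GFP library 3. Il21r, the IL-21 receptor, was at 508 and 480.4 CPM against 243 and 256 CPM (log2 fold change -0.99 ± 0.10, edgeR adjusted p = 0.00086). Il12rb1, shared by the IL-12 and IL-23 receptors, was at 41.9 and 57.7 CPM against 189.6 and 172 CPM (log2 fold change 1.86 ± 0.21, edgeR adjusted p = 0.00139). Among TGF-β and retinoid genes, 3 were higher and 6 lower of 19, with 3 lower without either unmarked Thy1.1 library. Tgfbr2, the ligand-binding TGF-β receptor, was at 447 and 411 CPM against 218 and 250.1 CPM (log2 fold change -0.88 ± 0.12, edgeR adjusted p = 0.00279), and Rarg, a retinoic acid receptor, at 54 and 43.2 CPM against 15.9 and 15.3 CPM (log2 fold change -1.64 ± 0.20, edgeR adjusted p = 0.00176). Igf1r, the insulin-like growth factor receptor, was at 112 and 133 CPM against 67.8 and 92.1 CPM (log2 fold change -0.61 ± 0.16, edgeR adjusted p = 0.0308). Of the 9 AHR targets tested, 5 were higher and none was lower. Igf1r missed the threshold without unmarked Thy1.1 library 1, unmarked Thy1.1 library 2, marked Thy1.1 library 1, marked Thy1.1 library 2 or marked GFP library 3, where its log2 fold change was -0.77, -0.52, -0.65, -0.65 and -0.44 in that order. Igf1r was also not called in the fit of the 4 compared libraries alone.

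Bcl2, the inhibitor of mitochondrial cell death, was much lower in marked GFP cells. It was at 938 and 1144 CPM in unmarked Thy1.1 cells and 127 and 137 CPM in marked GFP cells (log2 fold change -2.98 ± 0.18, edgeR adjusted p = 0.00026), and it was called with any 1 library left out. Fas, a death receptor, was also lower, at 79.6 and 87.5 CPM against 35.6 and 37.3 CPM (log2 fold change -1.20 ± 0.12, edgeR adjusted p = 0.00100). On the survival and death list as a whole, 6 were higher and 3 lower of 18, and the number higher was 1, 3 and 2 without unmarked Thy1.1 library 1, library 2 and marked GFP library 3, and 3 in the fit of the 4 compared libraries alone. The higher members include Birc5, a mitosis gene as well. Bik, a pro-death relative of Bcl2, had 0 counts in both unmarked Thy1.1 libraries and 8.14 and 7.06 CPM in the marked GFP libraries, at least 229.7-fold higher (against 3 counts over the group).

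The metabolic lists had small median differences. On the glycolysis list, 11 were higher and 3 lower of 22 (median 0.56). Ldha, which makes lactate, was at 852 and 826 CPM against 1650 and 1553 CPM (log2 fold change 0.93 ± 0.10, edgeR adjusted p = 0.00101), while its partner subunit Ldhb was at 54.2 and 52.6 CPM against 13.5 and 10.4 CPM (log2 fold change -2.16 ± 0.17, edgeR adjusted p = 0.00048). Pkm, pyruvate kinase, was at 814 and 783 CPM against 1515 and 1446 CPM (log2 fold change 0.89 ± 0.10, edgeR adjusted p = 0.00122). The 2 lactate dehydrogenase genes thus went in opposite directions. On the oxidative phosphorylation list, 12 were higher and 1 lower of 22 (median 0.47), with 6, 3 and 6 higher without unmarked Thy1.1 library 1, library 2 and marked GFP library 3. On the cholesterol synthesis list, 11 were higher and 1 lower of 23, with 2, 3 and 4 higher without those same libraries and 7 without either marked Thy1.1 library or in the 4 compared libraries alone. Cox5a, a subunit of complex IV, was at 102 and 97.6 CPM against 205 and 168 CPM (log2 fold change 0.90 ± 0.14, edgeR adjusted p = 0.00404). Amino acid transporters gave 3 higher and 4 lower of 16, with 0 and 1 higher without unmarked Thy1.1 library 1 and library 2 and 2 lower without library 2. Slc38a2, a neutral amino acid carrier, was at 232 and 212 CPM against 144 and 123 CPM (log2 fold change -0.73 ± 0.13, edgeR adjusted p = 0.00682).

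No interferon response gene passed the test: of 28 tested in edgeR, 0 were called, 1 had an unadjusted p under 0.05, and DESeq2 called 1. Their median log2 fold change was -0.14, and 0.76 without unmarked Thy1.1 library 2 and -1.21 without marked GFP library 4. Summed over the 31 members in the table, these genes stood at 2750 and 5267 CPM in unmarked Thy1.1 libraries 1 and 2 and at 2111 and 4840 CPM in marked GFP libraries 3 and 4, so the spread within a population was larger than the difference between them. With the odd and even column numbers as a block, 2 interferon genes were higher and 5 lower. Genes of handling stress gave 4 higher and 0 lower of 20, with 2 and 1 higher without unmarked Thy1.1 library 1 and library 2. GIMAP genes, small GTPases of lymphocytes, gave 2 higher and 1 lower of 8. Gimap3 was lower at 2669 and 2601 CPM against 1500 and 1553 CPM (log2 fold change -0.79 ± 0.08, edgeR adjusted p = 0.00106), and the number higher was 0 without either unmarked or either marked Thy1.1 library, unmarked GFP library 4 or marked GFP library 3. It was also 0 on library totals and in the 4 compared libraries alone, so no direction is given for the family.

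Some called genes had almost no counts in 1 population. Slc7a10, a neutral amino acid transporter, had 829 counts in unmarked Thy1.1 and 0 in marked GFP libraries, at least 250.2-fold lower (against 3 counts over the group). Its exons overlap Lrp3. Selp, which encodes P-selectin, had 562 counts against 0, at least 169.6-fold lower, with exons that overlap Gm16548. Cdkn1c, the inhibitor p57, was at least 102-fold lower. In the other direction, Npnt, an extracellular matrix protein, had a count ratio of 1425 (95% counting interval 255 to 56320). Of all called genes with a mean of at least 1 CPM, 26 higher and 29 lower genes had at most 3 counts in 1 population.

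The 15 genes with the largest fold changes in each direction, among those averaging 5 CPM or more whose populations did not overlap, moved with single libraries. Of those higher, 10 were called with each library left out in turn, and of those lower, 9. The fold moved by over 1.5 times in 14 and 13 of them. Ryr2, a calcium channel, was at 12.7 and 12.2 CPM against 0.925 and 0.457 CPM (log2 fold change -4.16 ± 0.45, edgeR adjusted p = 0.00107). Sorcs2, a sorting receptor, was at 67.8 and 61.9 CPM against 2.77 and 0.94 CPM (log2 fold change -5.11 ± 0.57, edgeR adjusted p = 0.00117). Gata1, a factor better known from red cells and eosinophils, was at 63.5 and 50.2 CPM against 3.23 and 2.34 CPM (log2 fold change -4.35 ± 0.31, edgeR adjusted p = 0.00028). Clec2g, a lectin-like receptor ligand, was at 0.339 and 0.14 CPM against 10.3 and 16.5 CPM (log2 fold change 5.78 ± 0.61, edgeR adjusted p = 0.00101). Plekhf1, an endosomal protein, was at 0.953 and 3.25 CPM against 46 and 48.2 CPM (log2 fold change 4.49 ± 0.64, edgeR adjusted p = 0.00291). Il21, the cytokine of helper cells, was at 0 and 0.397 CPM against 19 and 22.9 CPM (log2 fold change 6.73 ± 1.33, edgeR adjusted p = 0.0101). Ccl20, the ligand of Ccr6, was at 0.889 and 2.73 CPM against 46.9 and 49.2 CPM (log2 fold change 4.73 ± 0.70, edgeR adjusted p = 0.0034). Ryr2 kept its call without marked GFP library 3 but at a log2 fold change of -4.79. Sorcs2 kept its call without marked GFP library 3 but at a log2 fold change of -6.14. Clec2g kept its call without unmarked Thy1.1 library 1 but at a log2 fold change of 6.51. Plekhf1 kept its call without unmarked Thy1.1 library 1 or unmarked Thy1.1 library 2 but at a log2 fold change of 3.82 and 5.59 in that order. Il21 kept its call without unmarked Thy1.1 library 1 or unmarked Thy1.1 library 2 but at a log2 fold change of 5.67 and 12.84 in that order. Ccl20 kept its call without unmarked Thy1.1 library 1 or unmarked Thy1.1 library 2 but at a log2 fold change of 4.09 and 5.72 in that order.

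The 2 other populations carry the mark without GFP, or GFP without the mark, and share their libraries with these tests, so only totals and values are set side by side. Against marked Thy1.1 cells, marked GFP cells differed in 2074 genes (14.8%; 8.01% higher and 6.82% lower), and against unmarked GFP cells in 1768 (12.6%; 6.24% higher and 6.4% lower). Marked against unmarked Thy1.1 cells gave 0 genes (0%) in edgeR (smallest adjusted p = 0.259), 1063 at an unadjusted p under 0.05 and 148 in DESeq2. Unmarked GFP against unmarked Thy1.1 cells gave 23 (0.164%; 0.0643% higher and 0.1% lower) in edgeR, 1662 unadjusted and 581 in DESeq2.

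Ikzf2 was at 728 and 846 CPM in marked Thy1.1 and 289 and 470.1 CPM in unmarked GFP cells, and Maf at 79.5 and 84.1 CPM and 137 and 74.9 CPM. For Ikzf2 marked Thy1.1 cells lay above unmarked Thy1.1 cells, and for Maf both populations lay between the 2 ends. Gpr15 stood at 55.4 and 52.9 CPM in marked Thy1.1 and 21.6 and 18.6 CPM in unmarked GFP cells, the latter within the range of unmarked Thy1.1 cells. Satb1 was at 385 and 414 CPM in marked Thy1.1 and 847 and 994 CPM in unmarked GFP cells. Klrg1 and Il1rl1 were lowest in unmarked GFP cells, at 3.12 and 0.902 CPM and 9.39 and 5.06 CPM. Slc7a10 had 0 counts in both GFP populations and 19.1 and 25.8 CPM in marked Thy1.1 cells. Mki67 was at 13.2 and 5.21 CPM in marked Thy1.1 and 23.2 and 19.6 CPM in unmarked GFP cells.

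**Figure D5:**
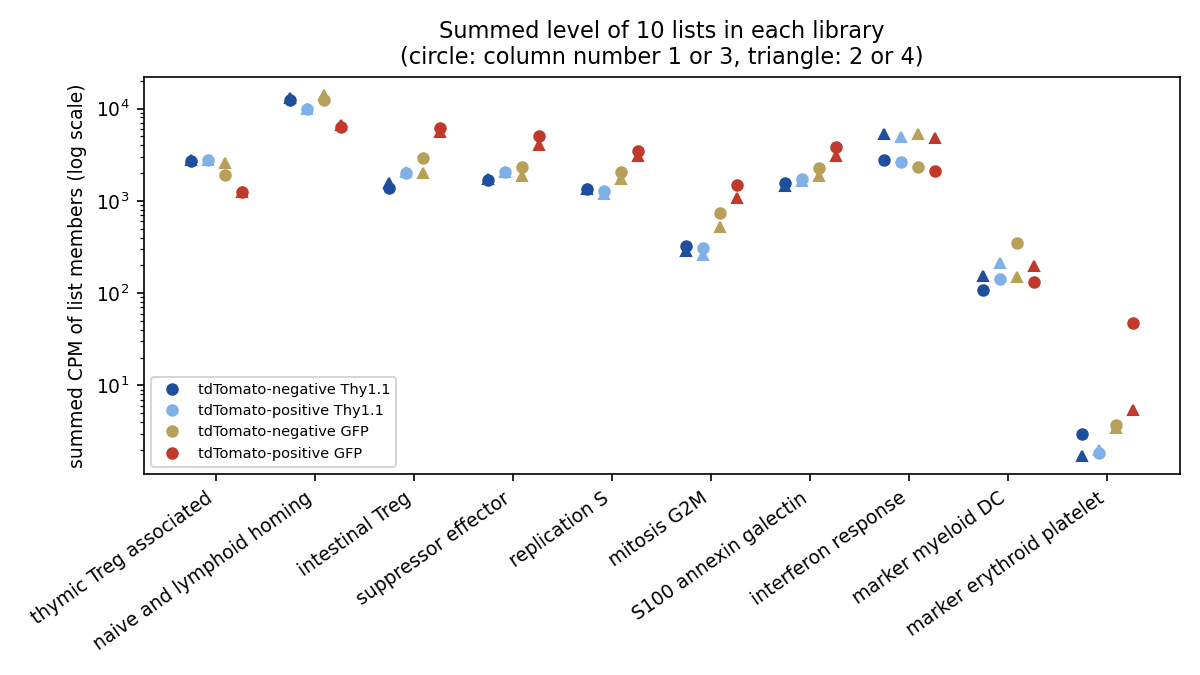
Summed CPM (log scale) of the members of 10 gene lists in each of the 8 libraries, with circles for column numbers 1 or 3 and triangles for 2 or 4. Intestinal Treg genes sum to 6085 and 5526 CPM in marked GFP cells and to 1365 and 1544 CPM in unmarked Thy1.1 cells, and interferon response genes separate circles from triangles in every population.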

How the data were processed

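PolyA RNA of sorted cells went through SMART-Seq v4 amplification (12 cycles), was made into libraries with a KAPA Hyper Prep kit (8 PCR cycles from 2 to 10 ng cDNA) and read as 50-nt pairs, per the labels' protocols. Strand is not marked by this kit. The deposited table holds unnormalized counts per gene, as its whole-number values show. Which aligner, annotation and build the authors used is not given in the sources used here. DESeq is named, without a version, in the submitters' processing notes. Of 24116 rows, 8 named no gene and held 0.0215% to 0.0264% of a library's counts. They were left out.

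Counts were tested with edgeR 4.0.16 (R 4.3.3; TMM scaling, filterByExpr with a minimum count of 10, robust quasi-likelihood fit, Benjamini-Hochberg adjustment over 13989 genes) in 1 fit of all 8 libraries with 1 mean per population. Each contrast was marked GFP minus the other population, or as named. Errors are standard errors of the log2 fold change, and CPM values use named-gene totals times TMM factors. CPM is not scaled by gene length, so levels are not compared between genes. GFP columns carry numbers that differ from the sample titles, and were assigned to a population only. Libraries of 1 population differed by more than sampling noise (chi-square per degree of freedom 38.3 to 82.9). Intervals and floors cover counting error only. On simulated counts, of which 13721 genes passed the filter, the test recovered 82% and 52% of genes changed 4-fold and 2-fold up. It recovered 74% and 48% of those changed 4-fold and 2-fold down, with 3 false calls. The simulated libraries were independent, with a spread set by expression level and 50 genes changed per fold. Shared animals and a contrast as broad as this were not simulated. DESeq2 1.42.0 was an alternative, with others given below.

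Genes were named by a rule: the 15 largest per direction whose populations did not overlap and whose mean reached 5 CPM, up to 4 members per list of 39 with the smallest adjusted p, and 23 set genes. Others in the text, such as promoter genes and members that did not pass, were picked with their values in view. Some genes that the rule names are not reported here. The populations, lists and tests were chosen with earlier results of these data known. Exons shared by 2 genes were found in GENCODE, used only for that and for chromosomes. Promoter sequences came from RefSeq (GRCm38.p6).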

Additional observations from a re-analysis of the deposited data

How the results depend on the processing

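Of 13989 genes tested, 3303 passed in the reported fit. With RLE factors 3268 passed (1661 higher, 1607 lower), with library totals 3284 (1581, 1703), with no filter on low counts 3170, with at least 5 CPM in 2 libraries 3509 (1712, 1797), in DESeq2 4400 (2188, 2212), and in the 4 compared libraries alone 2405 (1315, 1090). With any 1 library left out the count ran from 1348 to 3334 genes, from 624 to 1720 higher and from 719 to 1742 lower. Under the same settings the median of the changes in log2 fold change, over genes tested in both fits, was at most 0.043 in size. No called gene changed sign under any of these settings or with 1 library left out. Of the 36 named genes that did not pass, 11 changed sign with 1 library left out, among them Lyz2 (-8.58 to 5.36), Sdc1 (-7.13 to 7.87), Il2ra (-0.55 to 0.21) and Bcl6 (-0.45 to 0.16). Of the 200 named genes that passed, 132 passed with each of the 8 libraries left out in turn and 173 under the 7 other settings. Without either unmarked Thy1.1 library, the 1 higher gene of the NF-κB and thymocyte lists and the 1 lower gene of the oxidative phosphorylation and cholesterol synthesis lists were not called. The cause of the lost calls was not tested.

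The odd and even column numbers of the table were tried as a replicate block, which gave 3410 genes (1746 higher, 1664 lower). Odd-numbered libraries of different populations correlated at 0.079 to 0.153 in their deviations. All 6 correlations were positive and 3 were under 0.1, and the labels do not say what the numbers stand for, so the block was kept as an alternative. Interferon response genes differed by column number in every population. Under the block, 2 interferon response genes were higher and 5 lower, where none passed without it.

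Called genes named here with at most 3 counts in 1 population were given by a bound or by a ratio with its counting interval. Depth limits them. Exceptions were Nos1 and Hba-a2, which were given by CPM alone.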

Other observations

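Summed over the 31 interferon response genes in the table, 28 of them tested, libraries numbered 1 or 3 held 2750 (unmarked Thy1.1), 2649 (marked Thy1.1), 2353 (unmarked GFP) and 2111 CPM (marked GFP), and those numbered 2 or 4 held 5267, 4899, 5311 and 4840 CPM. In each population the even-numbered library was higher. Usp18, an interferon-induced regulator, was at 109.5 and 301 CPM in unmarked Thy1.1 and 15.2 and 125 CPM in marked GFP libraries, so its ratio was larger in marked GFP cells. The labels do not say what the numbers stand for.

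Some genes were high mainly in 1 marked GFP library. Nos1, neuronal nitric oxide synthase, was at 26.1 and 1.1 CPM in libraries 3 and 4 and at 0 and 0.0701 CPM in unmarked Thy1.1 cells. Tmeff2, a membrane protein, was at 1.96 and 28 CPM and at 0.0847 and 0.0701 CPM. Nkg7, a cytotoxic granule protein, was at 116 and 26.7 CPM, with 13.7 and 16.2 CPM in unmarked Thy1.1 cells. Areg, the tissue repair factor amphiregulin, was at 24.6 and 3.46 CPM against 1.65 and 1.7 CPM and did not pass. Unmarked GFP library 3 held Siglech, a plasmacytoid dendritic cell marker, at 36.8 CPM, and library 4 held none.

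Ebi3 and Klrg1 had their lowest values in unmarked GFP cells. Ebi3 was at 3.53 and 3.26 CPM in unmarked GFP libraries, 19.8 and 22.5 CPM in unmarked Thy1.1 and 9.88 and 10.1 CPM in marked GFP libraries. Against unmarked Thy1.1 cells its edgeR adjusted p was 0.0146, and in the contrast of marked over unmarked GFP cells 0.00729. Klrg1 was at 3.12 and 0.902 CPM there, with an adjusted p of 0.0612 against unmarked Thy1.1 and 0.0028 in marked over unmarked GFP cells. These genes were picked after their values were seen.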
